A study of Mus musculus with 35 samples.

Results

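Spinal cord microglia from 7 rNLS8 mice in recovery were compared with those from 3 wild-type (WT) littermates kept on the same diet schedule. The 10 libraries were taken by their phenotype, genotype and diet labels out of 35 in the series, and each library came from the sorted cells of 1 mouse. rNLS8 mice (NEFH-tTa/tetO-208-hTDP43) carry a NEFH-driven tTa activator and a tetO-controlled human TDP-43 transgene, so doxycycline (DOX) in the diet keeps the transgene off and its removal turns it on. The recovery mice were (+/+) for this system, and the WT mice were (-/-). Both groups were of mixed C57BL/6J X C3HeJ F1 background, ate DOX until 8 to 12 weeks of age, went without it for 6 weeks and then ate it again for 1 week before collection. The recovery group held 3 males and 4 females, and the WT group held 1 male and 2 females. The other groups compared here were 7 rNLS8 mice in late disease (6 weeks without DOX) and 6 rNLS8 mice that never left DOX. A further 5 WT mice were on other schedules (4 without DOX for 2 weeks and 1 for 6 weeks). Another 7 rNLS8 mice, in early disease (2 weeks without DOX), entered only the shared fit of all 35 libraries. NEFH encodes the neurofilament heavy chain of neurons, so the transgene is driven in neurons and not in the sorted cells.

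Microglia are the resident macrophages of the central nervous system. In the healthy cord they keep a homeostatic programme that includes the purinergic receptor gene P2ry12 and the surface protein gene Tmem119. Around dying neurons or amyloid they take on a state called disease-associated microglia, with high Apoe, Axl, Spp1, Csf1, Itgax, Lpl and Clec7a, part of which depends on the lipid receptor TREM2. In rNLS8 mice, cytoplasmic human TDP-43 accumulates in neurons after DOX is withdrawn, motor neurons are lost, and return of DOX lets the mice clear the protein.

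Cells were flushed from perfused cords, freed of myelin on Percoll, and sorted as live cells positive for CD11b and CD45. The genes of these sorting markers were high in every library. Itgam, which encodes CD11b, had 1314, 1681 and 2058 CPM (counts scaled to a common library size) as the lowest, median and highest values in recovery, against 1581, 1565 and 1601 CPM in WT. For each gene below, recovery values follow that order and WT values are those of Control1, Control2 and Control3. Ptprc, which encodes CD45, had 364, 427 and 511 CPM in recovery, against 329, 374 and 397 CPM in WT. Neither gene passed the test (adjusted p = 0.896 and 0.468). Neither marker tells microglia from infiltrating myeloid cells, which carry both. Tardbp, the mouse gene of TDP-43, had 37.6, 47.6 and 69.4 CPM in recovery and 42.0, 30.8 and 41.5 CPM in WT (adjusted p = 0.66).

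Recovery libraries held 16081887 to 20412352 expected counts and WT libraries 13916292 to 19088274. Genes with a count numbered 16130 to 16850 in recovery and 15518 to 16014 in WT. Library titles open with a code, called the date code here although no label used says what it stands for. It was the same for all recovery mice (0803) and a different one for all WT mice (0810). Group and date code therefore cannot be told apart, and no batch term can be fitted. The share of TPM, transcript abundance scaled to a common total, that fell outside the table's genes moved with the code: it was 4.09 to 8.86% in recovery and 13.904 to 15.2% in WT. Its part in the results was not tested; values with this share as a covariate are given beside some of the results below. In bulk samples of sorted cells, fewer cells of a type and less RNA per cell cannot be told apart. The edgeR p-values rest on the spread between mice within groups, estimated over all 35 libraries in 7 groups.

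Of 16151 genes tested, 170 differed at an adjusted p under 0.05 (1.05%; edgeR quasi-likelihood test with Benjamini-Hochberg adjustment). Higher in recovery were 116 genes (0.718%), with a median log2 change of 2.47 (also with genes at 0 in WT set to a bound from 3 counts over the group), and lower were 54 (0.334%), with a median of −0.83. The higher genes covered the disease-associated state, chemokines, antigen presentation, complement and mitosis, and also genes of neutrophils. At least 2-fold changes made up 88 of the 116 higher genes and 24 of the 54 lower genes. In 20 of the 116, all 3 WT libraries had a count of 0. The values of the 7 recovery libraries lay wholly above those of WT for 108 of the 116, and wholly below for 46 of the 54. Calls and ranges come from the same libraries, so this separation adds no independent support. Across all genes tested, ranges lay apart upward for 4.74% and downward for 3.07%, and 2492 genes (15.4%) had an unadjusted p under 0.05.

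The number of calls moved with single libraries. Leaving out Control1, Control2 or Control3 left 31, 41 or 75 calls, leaving out Recovery2, Recovery7 or Recovery9 left 83, 96 or 89, and leaving out Recovery4 gave 254. With that TPM share taken as a covariate, 204 genes were called, 114 higher and 90 lower, of which 62 were among the 170. Genes that kept their call in all 24 alternatives were Axl, Apoe, Csf1, C3, Cd74 and Spp1.

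**Figure D1:**
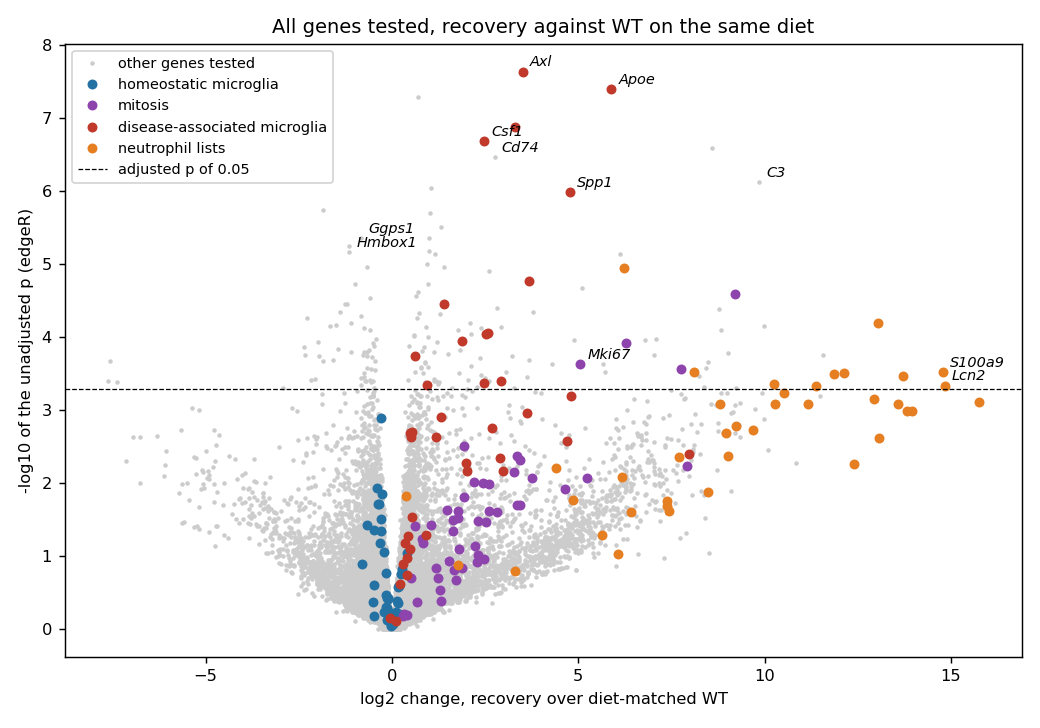
Every gene tested, with the log2 change of recovery over WT on the horizontal axis and the −log10 of the unadjusted edgeR p on the vertical axis; colours mark the homeostatic, mitosis, disease-associated and neutrophil lists, and the dashed line is the adjusted p of 0.05. Genes above the line number 116 to the right and 54 to the left of 0, with medians of 2.47 and −0.83; the position of genes at 0 in WT depends on the fit and is no bound.

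Many disease-associated microglial genes were higher in recovery. Of 39 tested members, 14 were called higher and none lower, with log2 changes of 0.61 to 5.88. The median over all 39 was 1.89, beside 0.04 over all genes tested, and 29 of the 39 had an unadjusted p under 0.05. In 23 of the 39 every recovery library exceeded every WT library. The summed level of the list was 62689, 65539 and 80070 CPM (lowest, median, highest) in recovery, against 44203, 47924 and 53693 CPM in WT. The count fell to 5, 5 and 6 without Control1, Control2 and Control3, while it was 10 to 14 with any 1 recovery library left out. Neutrophil granule genes moved with the same contrast, at 119 to 4869 summed CPM in recovery and under 1 CPM in WT, and their part was not tested beyond the relations given with them.

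Apoe (chr7:19696109-19699188 in mm10) encodes apolipoprotein E, the main carrier of lipid out of glia. It had 1037, 2391 and 3245 CPM as the lowest, median and highest recovery values, against 29.3, 36.7 and 53.4 CPM in the WT libraries. The lowest recovery mouse stood far above the highest WT mouse. The log2 change was 5.88 ± 0.83 (SE derived from the edgeR F statistic, adjusted p = 0.000278). Spp1 (chr5:104435118-104441050) encodes osteopontin, a secreted matrix protein that activated macrophages release. It had 309, 854 and 1171 CPM in recovery and 27.7, 34.99 and 19.5 CPM in WT, without overlap (log2 change 4.77 ± 0.80, adjusted p = 0.00161). Axl (chr7:25757273-25788705) encodes a receptor tyrosine kinase that binds phosphatidylserine on dying cells through GAS6. It had 210, 265 and 390 CPM in recovery and 43.6, 36.5 and 11.5 CPM in WT, again without overlap (3.51 ± 0.48, adjusted p = 0.000278).

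Csf1 encodes a ligand of CSF1R, the receptor on which microglia depend for survival. It had 51.0, 81.6 and 121 CPM in recovery and 20.2, 22.3 and 8.46 CPM in WT, with the lowest recovery mouse above all WT mice (2.47 ± 0.38, adjusted p = 0.000669). Itgax, the gene of CD11c, had 72.1, 84.5 and 104 CPM in recovery and 23.7, 15.1 and 11.6 CPM in WT (2.53 ± 0.57, adjusted p = 0.0238). Its recovery values lay apart from WT. Clec7a, the gene of the glucan receptor Dectin-1, had 115, 160 and 281 CPM in recovery and 28.7, 43.2 and 24.3 CPM in WT (2.47 ± 0.63, adjusted p = 0.0447). Lyz2, the gene of a lysozyme made by all myeloid cells, had 564, 851 and 2073 CPM in recovery and 64.3, 216 and 92.7 CPM in WT (3.30 ± 0.49, adjusted p = 0.000541). Both genes kept the groups apart, and the highest Lyz2 value was that of Recovery9. The other called members were Cst7, Cd52, Lgals3, Vim, Ctsz, Lpl and Anxa5.

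Several members of the programme missed the threshold. Trem2, the gene of the lipid receptor itself, had 1337, 1455 and 1838 CPM in recovery and 1256, 1254 and 1343 CPM in WT (0.25 ± 0.18, adjusted p = 0.535). The 2 groups overlapped at their edges. Tyrobp, which encodes the signalling partner of TREM2, had 1211, 1326 and 1617 CPM in recovery and 855, 1019 and 947 CPM in WT (0.51 ± 0.15, adjusted p = 0.092). Cd63, a tetraspanin of late endosomes, had 661, 696 and 911 CPM in recovery and 319, 409 and 228 CPM in WT (1.18 ± 0.36, adjusted p = 0.092). Ctsb, a lysosomal protease, had 6879, 7548 and 8840 CPM in recovery and 5195, 5630 and 5226 CPM in WT (0.55 ± 0.16, adjusted p = 0.0881). For Tyrobp, Cd63 and Ctsb, all 7 recovery libraries were above all 3 WT libraries although the adjusted p missed 0.05.

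**Figure D2:**
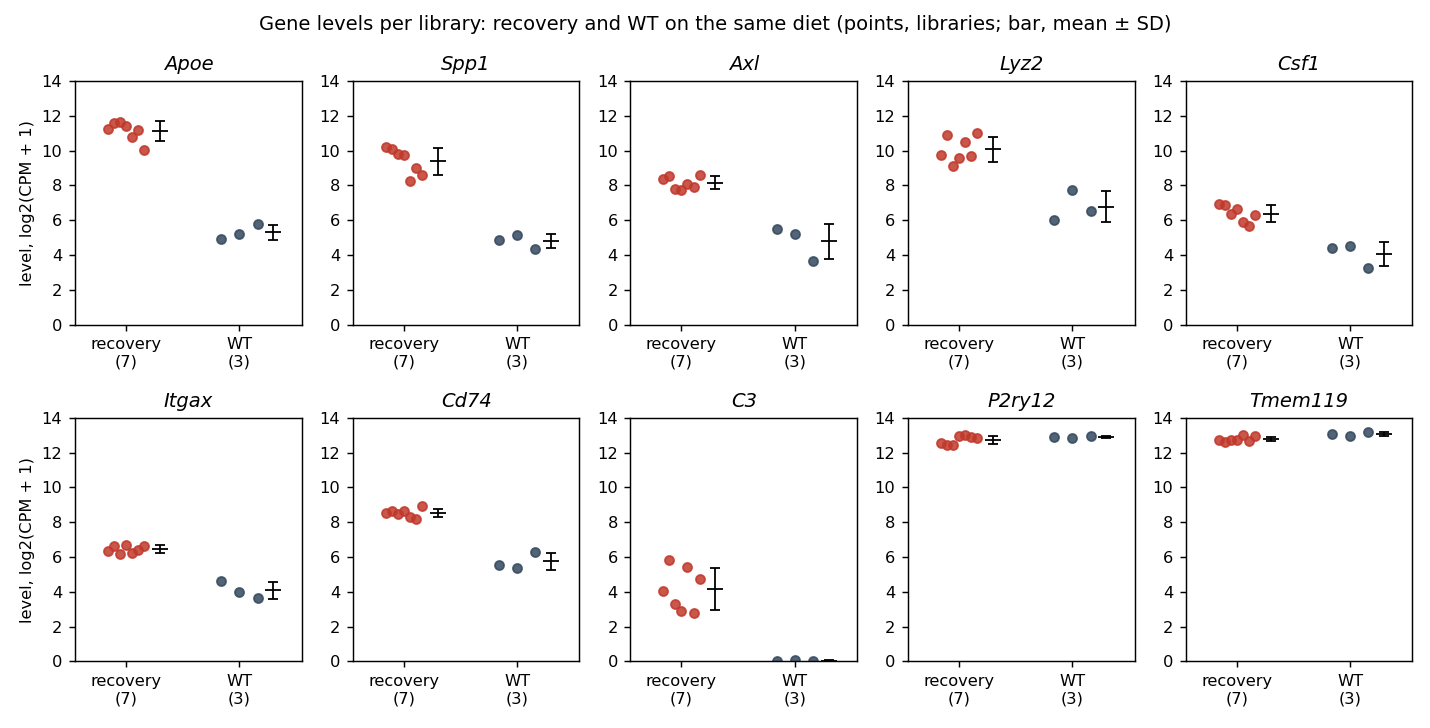
Level of each named gene on a log2(CPM + 1) axis, with 1 point per library, recovery on the left and WT on the right of each panel; bars are the mean and SD. Apoe and Spp1 are apart by several log2 units with all recovery points above all WT points, whereas P2ry12 overlaps between the groups.

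Some lipid handling genes were also higher. Of 25 tested genes of lipid efflux and storage, 4 were called higher and none lower, with a median of 0.94, and 11 of the 25 had all recovery values above all WT values. Their summed level was 3610, 4824 and 5808 CPM in recovery and 2005, 2021 and 2144 CPM in WT, and Apoe, also a disease-associated gene, is part of that sum. Lpl, a lipoprotein lipase, had 78.0, 233 and 511 CPM in recovery and 33.6, 52.5 and 14.3 CPM in WT (2.94 ± 0.74, adjusted p = 0.0432). Dgat2, which makes triglycerides for lipid droplets, had 2.73, 8.66 and 16.5 CPM in recovery and 2.65, 1.61 and 0.873 CPM in WT (2.61 ± 0.66, adjusted p = 0.0432). Plin3, a lipid droplet coat protein, had 19.2, 28.6 and 42.4 CPM in recovery and 14.2, 19.7 and 9.99 CPM in WT (0.96 ± 0.23, adjusted p = 0.0367). Lpl and Dgat2 did not overlap between the groups and Plin3 did. The count was 1 without Recovery2, Recovery9, Control1 or Control3, and 2 without Recovery3, Recovery7 or Control2.

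The cholesterol synthesis list had no called gene among 25 by edgeR, and its median was 0.22; 7 of them had an unadjusted p under 0.05, and DESeq2 called 2. In the lysosome and cathepsin list, 2 of 47 were called higher and none lower, with a median of 0.15. Ctsz, a cathepsin of the disease-associated state, had 3053, 3458 and 4074 CPM in recovery and 2201, 2431 and 2428 CPM in WT (0.61 ± 0.14, adjusted p = 0.0308). Gusb, beta-glucuronidase, had 565, 632 and 735 CPM in recovery and 462, 498 and 433 CPM in WT (0.46 ± 0.11, adjusted p = 0.0283). Both changed by less than 2-fold, and both had ranges that lay apart. The count was 0 without Recovery2, Control1, Control2 or Control3 and in the fit with a replicate block, and 1 with the TPM share as a covariate. In those 5 fits without a call, 8 to 15 of the 47 genes of the list of lysosome and cathepsins had an unadjusted p under 0.05, and DESeq2 called 3 higher on all libraries. Among 29 phagocytic receptors the 2 called genes were Axl and Clec7a, and the list's median was 0.26.

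Some chemokines were higher in recovery, most of them at low levels. Of 16 tested ligands, 3 were called higher and none lower, with a median of 2.20, or 2.16 with genes at 0 in WT set to their bound, and 7 of the 16 had ranges apart upward. Ccl3, a chemokine that draws monocytes and macrophages, had 49.7, 77.7 and 143 CPM in recovery and 8.94, 19.6 and 9.94 CPM in WT (2.81 ± 0.59, adjusted p = 0.017). Ccl2, the ligand of CCR2 that draws monocytes, had 2.85, 6.10 and 10.5 CPM in recovery and 0, 0.460 and 0.218 CPM in WT (4.80 ± 0.80, adjusted p = 0.00161). Ccl5 had 2.77, 4.46 and 10.9 CPM in recovery and 0.786, 1.27 and 0.273 CPM in WT (2.87 ± 0.73, adjusted p = 0.0432). None of the 3 overlapped between the groups. Ccl4, the close relative of Ccl3, had 63.8, 98.6 and 147 CPM in recovery and 24.7, 28.8 and 15.6 CPM in WT, with an adjusted p of 0.0501 (2.14 ± 0.56). The count was 1 without Control1 or Control3 and 5 without Recovery4.

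In the list of inflammatory cytokines and NF-kB genes, 2 of 33 were called higher and none lower, with a median of 0.29. Tnf had 1.05, 4.72 and 7.20 CPM in recovery and 0.286, 1.04 and 0 CPM in WT (3.68 ± 0.88, adjusted p = 0.0332). Its ranges nearly met, since Recovery4 was at 1.05 CPM and the other recovery mice were at 4.46 CPM or more. Relb, an NF-kB subunit, had 10.1, 23.3 and 34.2 CPM in recovery and 12.9, 5.12 and 10.3 CPM in WT (1.26 ± 0.32, adjusted p = 0.0432), with overlap. Neither call held without Recovery2, Recovery9, Control1 or Control3, since the list then had no called gene. With the TPM share as a covariate, Relb had an adjusted p of 0.233 by edgeR and Tnf kept its call. Against the 5 WT mice on other schedules, the log2 change of Relb was −0.05.

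Complement genes included C3, the central component that tags cells for uptake. C3 had 5.82, 15.6 and 55.9 CPM in recovery, against 0, 0.0576 and 0 CPM in WT. These were 2877 counts in 7 recovery libraries and 1 count in 3 WT libraries, a ratio of 1137 with a 95% counting interval of 204 to 44915 (adjusted p = 0.00153). Cfb, factor B of the alternative pathway, had 0.497, 2.37 and 4.57 CPM in recovery and no count in WT, at least 41.4-fold higher against a floor of 3 counts over the group (adjusted p = 0.0342). With Itgax, which encodes a complement receptor chain, 3 of 18 complement genes were called higher and none lower, and the list's median was 0.28. The count was 1 without any of the 3 WT libraries. C3 was itself called in each of those fits.

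A few interferon response genes were higher in recovery. Of 46 tested, 3 were called higher and none lower, with a median of 0.84, and 4 had ranges apart upward. Rsad2, the antiviral enzyme viperin, had 1.86, 2.50 and 15.4 CPM in recovery and 0, 0.403 and 0 CPM in WT (5.09 ± 1.03, adjusted p = 0.0114). Ifitm3, a membrane protein that blocks viral entry, had 14.9, 33.0 and 139 CPM in recovery and 6.22, 6.68 and 4.91 CPM in WT (2.94 ± 0.65, adjusted p = 0.0216). Ifitm2 had 2.17, 8.41 and 16.9 CPM in recovery and 0, 0.691 and 0 CPM in WT (4.89 ± 1.11, adjusted p = 0.0257). All 3 lay apart, but Ifitm2 and Ifitm3 are near-identical copies whose reads the counting splits by estimate, so each is uncertain. The list's summed level overlapped, at 1510, 1810 and 3198 CPM in recovery and 1584, 1716 and 1768 CPM in WT. The count was 1 without Control1 and 0 without Control3. In that fit without Control3, 8 of the 46 genes had an unadjusted p under 0.05. The median of the interferon response list was 0.48 without Recovery9, with 7 genes at an unadjusted p under 0.05 and 2 called, and 0.55 without Recovery2, with 9 genes and 3 called.

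The promoters of the 3 called genes are shown because interferon-induced genes carry a known element, GAAANNGAAA, the core of the interferon-stimulated response element. Each runs from 250 bases before to 30 after the RefSeq start in GRCm38.p6, all on the minus strand, at chr12:26456423-26456702 for Rsad2, chr7:140955932-140956211 for Ifitm2 and chr7:141010715-141010994 for Ifitm3. Capitals mark the element on either strand.
Rsad2: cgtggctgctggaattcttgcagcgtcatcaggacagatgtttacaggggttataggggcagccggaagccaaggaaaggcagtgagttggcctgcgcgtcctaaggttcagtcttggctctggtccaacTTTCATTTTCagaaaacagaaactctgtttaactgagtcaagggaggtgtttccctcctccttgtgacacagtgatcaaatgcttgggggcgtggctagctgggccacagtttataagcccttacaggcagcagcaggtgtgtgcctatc
Ifitm2: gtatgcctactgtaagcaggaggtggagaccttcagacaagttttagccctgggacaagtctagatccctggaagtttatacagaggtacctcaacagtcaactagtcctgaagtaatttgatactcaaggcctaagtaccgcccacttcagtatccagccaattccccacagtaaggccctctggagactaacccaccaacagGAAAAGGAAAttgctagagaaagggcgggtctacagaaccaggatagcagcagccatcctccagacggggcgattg
Ifitm3: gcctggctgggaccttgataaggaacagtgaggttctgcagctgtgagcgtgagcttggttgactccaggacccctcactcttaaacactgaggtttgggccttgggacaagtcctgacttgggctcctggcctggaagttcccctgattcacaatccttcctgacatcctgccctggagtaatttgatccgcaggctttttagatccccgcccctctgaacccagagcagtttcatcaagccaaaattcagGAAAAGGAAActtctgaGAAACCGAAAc
The element begins at −120 in Rsad2, on the opposite strand, at −46 in Ifitm2, and at positions 3 and 20 after the start in Ifitm3. It occurred, on either strand, in 3.44% of all 32851 promoter windows of 300 bases (27025 symbols) and in 20 of the 36 interferon genes with a window. A match is a description of the letters and shows no binding.

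MHC class II, which shows peptides to CD4 T cells, had several genes higher in recovery. Of 14 class II genes, 3 were called higher and none lower, and the median was 0.29. Cd74, the invariant chain, had 293, 374 and 484 CPM in recovery and 46.4, 39.8 and 78.0 CPM in WT (2.75 ± 0.43, adjusted p = 0.000796). H2-Aa, the alpha chain of I-A, had 8.12, 43.3 and 53.2 CPM in recovery and 1.86, 1.90 and 5.73 CPM in WT (3.62 ± 0.91, adjusted p = 0.0429). H2-Ab1, the beta chain, had 43.8, 87.1 and 102 CPM in recovery and 9.72, 12.6 and 34.1 CPM in WT (2.04 ± 0.52, adjusted p = 0.0432). All 3 kept the groups apart. H2-Eb1 overlapped, at 1.71, 16.7 and 21.2 CPM in recovery and 0.357, 0.806 and 2.84 CPM in WT (3.49 ± 0.95, adjusted p = 0.061). The low value in both H2-Aa and H2-Eb1 was that of Recovery7. Cd74 kept its call in every alternative, while the list's count was 1 without Recovery2, Recovery3, Recovery5, Recovery9, Control1 or Control2.

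Among 20 class I genes, only H2-Q6 was called, with 6.30, 18.9 and 84.0 CPM in recovery and 4.22, 3.63 and 0.819 CPM in WT (3.23 ± 0.77, adjusted p = 0.0308). It is near-identical to H2-Q7, and its value is uncertain for that reason. The class I median was 0.49. No gene of the list of MHC class I antigen presentation was called without Recovery2, Recovery9, Control1, Control2 or Control3, or against the 5 WT mice on other schedules. In those 6 fits 4 to 10 genes had an unadjusted p under 0.05, and DESeq2 called 5 on all libraries. The median was 0.33 without Recovery9 and 0.18 against the 5 WT mice on other schedules.

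The H2-Aa promoter (chr17:34287794-34288073, minus strand, GRCm38.p6) is shown for the conserved class II Y box, CTGATTGG, in capitals, which begins at −51.
H2-Aa: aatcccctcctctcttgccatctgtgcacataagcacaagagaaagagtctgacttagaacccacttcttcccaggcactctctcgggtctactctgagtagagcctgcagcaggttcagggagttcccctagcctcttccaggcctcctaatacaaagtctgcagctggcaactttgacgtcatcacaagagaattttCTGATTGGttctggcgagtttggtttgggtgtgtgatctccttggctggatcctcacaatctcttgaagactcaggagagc
CTGATTGG occurred on either strand in 4.1% of all windows and in 3 of the 10 class II genes with a window. Its reverse holds CCAAT, so it overlaps the motif searched in the mitotic genes.

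A few mitosis genes were called higher in recovery, each at a low level. Of 49 tested genes, 4 were called higher and none lower, the median was 1.93, 29 had an unadjusted p under 0.05 and 15 had ranges apart upward. Their summed level was 191, 233 and 973 CPM in recovery and 101, 113 and 128 CPM in WT. The highest sum was that of Recovery2, and the next was 391 CPM in Recovery3. Mki67, which marks all cycling phases, had 2.38, 6.77 and 35.7 CPM in recovery and 0, 0 and 0.928 CPM in WT (5.05 ± 1.22, adjusted p = 0.0349). Kif22, a kinesin that moves chromosomes, had 2.82, 3.78 and 14.5 CPM in recovery and 0, 0.230 and 0 CPM in WT (6.29 ± 1.44, adjusted p = 0.0265). Cenpe, a kinetochore kinesin, had 1.40, 2.07 and 16.3 CPM in recovery and no count in WT, at least 74.5-fold higher (adjusted p = 0.013). Kif4, another mitotic kinesin, had 0.166, 1.26 and 3.73 CPM in recovery and no count in WT, at least 22.3-fold higher (adjusted p = 0.0381).

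None of these 4 overlapped between the groups, and the highest recovery value was several times the median in each. None of the 49 mitosis genes was called without Control1 or Control2, 1 was called without Control3, and 2 without Recovery2. In the fits without Control1 and without Control2, 20 and 24 of the 49 had an unadjusted p under 0.05, and the medians were 2.13 and 2.15. Without Recovery2, 18 of the 49 had an unadjusted p under 0.05, and the median was 1.42. None was called against the 5 WT mice on other schedules, where the median change was 1.61 and 25 had an unadjusted p under 0.05. With the TPM share as a covariate 1 was called, and 14 had an unadjusted p under 0.05. Other fits called more of the 49 mitosis genes higher. DESeq2 called 15, and limma on TPM plus 1 and plus 0.1 called 6 and 9. Against the 9 controls of date code 0810 (WT and rNLS8 on DOX) edgeR called 23. DNA replication genes moved less, with none of 42 called by edgeR, 19 with an unadjusted p under 0.05, 9 called higher by DESeq2, and a median of 0.72. Mcm5, a subunit of the replicative helicase, had 9.92, 13.3 and 42.6 CPM in recovery and 4.58, 2.76 and 9.55 CPM in WT (1.64 ± 0.45, adjusted p = 0.0646). Its ranges lay apart.

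Kif22 (chr7:127042391-127042670) and Mki67 (chr7:135716350-135716629), both on the minus strand of GRCm38.p6, are shown for the letters that late cell cycle promoters share. Capitals mark CCAAT and TTTGAA, the cell cycle homology region, on either strand.
Kif22: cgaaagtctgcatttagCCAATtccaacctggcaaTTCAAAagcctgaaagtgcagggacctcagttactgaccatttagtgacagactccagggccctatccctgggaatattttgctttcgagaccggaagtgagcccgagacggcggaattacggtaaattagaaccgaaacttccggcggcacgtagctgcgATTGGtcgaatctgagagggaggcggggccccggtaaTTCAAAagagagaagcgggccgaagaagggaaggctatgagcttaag
Mki67: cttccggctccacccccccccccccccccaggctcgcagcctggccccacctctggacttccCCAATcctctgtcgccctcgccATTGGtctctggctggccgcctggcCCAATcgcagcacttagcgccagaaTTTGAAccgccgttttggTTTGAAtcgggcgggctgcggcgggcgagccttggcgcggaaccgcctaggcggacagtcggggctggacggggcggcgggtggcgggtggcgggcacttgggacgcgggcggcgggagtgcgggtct
In Kif22, CCAAT begins at −233 and, on the opposite strand, at −54, and TTTGAA begins at −215 and −17, both on the opposite strand. In Mki67, CCAAT begins at −188, at −141 and, on the opposite strand, at −166, and TTTGAA begins at −116 and −98. CCAAT was in 37.4% of all windows and in 31 of the 42 mitosis genes with a window. TTTGAA was in 17.9% of all windows and in 30 of the 42.

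Neutrophil genes gave the widest spread among the recovery mice. The secondary and tertiary granule genes, which neutrophils and their precursors make, summed to 119, 1143 and 4869 CPM in recovery (lowest, median, highest), against 0.0715, 0.491 and 0.978 CPM in WT. Recovery3 had 4869 CPM, Recovery9 had 4113, Recovery7 had 3094, Recovery2 had 1143, Recovery5 had 488, Recovery8 had 191 and Recovery4 had 119. Even the lowest recovery mouse was above every WT mouse. All 14 tested genes of this list had an unadjusted p under 0.05, and 3 were called higher, Chil3, Camp and Lcn2. The median log2 change was 12.66, or 10.08 with the 7 genes at 0 in WT set to their bound.

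S100a8, which encodes a subunit of calprotectin, an abundant protein of neutrophil cytosol, had 54.6, 420 and 1701 CPM in recovery, against 0.0715, 0.288 and 0 CPM in WT (13.70 ± 3.43, adjusted p = 0.0428). S100a9, its partner, had 38.1, 343 and 1417 CPM in recovery and 0, 0.115 and 0 CPM in WT. With 71885 counts in recovery and 2 in WT, the ratio was 14202, with a counting interval of 3931 to 117270 (adjusted p = 0.0396). No recovery library came near the WT level for either gene. Lcn2, the siderophore-binding lipocalin of granules, had 9.93, 85.9 and 332 CPM in recovery and no count in WT, at least 2501-fold higher (adjusted p = 0.0471). Chil3, a chitinase-like protein of granules and monocytes, had 7.77, 95.3 and 492.8 CPM in recovery and 0, 0.115 and 0 CPM in WT, a ratio of 4724 with an interval of 1308 to 39007 (adjusted p = 0.0215). Camp, the antimicrobial cathelicidin, had 7.22, 102 and 447 CPM in recovery and 0.0715, 0.173 and 0 CPM in WT (11.86 ± 2.95, adjusted p = 0.0408). All 3 again lay apart from WT in each mouse.

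In the list of neutrophil cytosol, receptor and mature genes, 6 of 20 were called higher, S100a8, S100a9, Cxcr2, Wfdc21, Trem3 and Mmp25, and 18 had an unadjusted p under 0.05. The median was 8.29, or 5.65 with the 12 genes at 0 in WT set to their bound. Cxcr2, the chemokine receptor that brings neutrophils out of the marrow, had 1.49, 6.20 and 22.7 CPM in recovery and 0.214, 0.115 and 0.109 CPM in WT (6.21 ± 1.20, adjusted p = 0.00736). In the primary granule list 1 of 5 was called, Serpinb1a, a protease inhibitor, with 0.475, 11.3 and 43.5 CPM in recovery and no count in WT, at least 285-fold higher (adjusted p = 0.0478, or 0.338 by edgeR with the TPM share as a covariate). The primary granule list summed to 0.475, 19.6 and 65.0 CPM in recovery and to 0 in WT. These sums were far below those of the later granule genes in the same mice. Serpinb1a, the inhibitor, is part of the sum and made up all of the lowest value, that of Recovery8. The other members were thus not seen in every recovery mouse.

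Few of these calls held when a library was left out. In the secondary and tertiary granule list the count was 1 without Recovery2, Recovery3, Recovery7 or Recovery9, 0 without any 1 of the WT libraries, and 8 without Recovery4 or Recovery8. In the cytosol and receptor list it was 1 without Recovery2, Recovery3, Recovery7, Recovery9 or Control3, and 0 without Control1 or Control2. Without Control1, Control2 and Control3, 14, 14 and 14 of the 14 granule genes had an unadjusted p under 0.05. With the TPM share as a covariate, none of the 14 granule genes and 1 of the 20 was called by edgeR, with 5 and 11 at an unadjusted p under 0.05. DESeq2 called 13 of the 14 and 11 of the 20.

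Of 25 monocyte genes tested, 2 were called higher, Ly6c2 and Chil3, and 17 had an unadjusted p under 0.05. The median was 5.11, or 3.85 with the 11 genes at 0 in WT set to their bound. Ly6c2, a surface antigen of classical monocytes, had 0.501, 9.42 and 43.1 CPM in recovery and no count in WT, at least 284-fold higher (adjusted p = 0.0308). Ly6c2 and Ly6c1 are near-identical, so their split is uncertain. Ccr2, the receptor for CCL2 on those cells, had 0.1003, 2.21 and 17.2 CPM in recovery and 0.214, 2.71 and 1.86 CPM in WT (1.52 ± 0.79, adjusted p = 0.349), with full overlap. Fn1, fibronectin, had 8.73, 25.7 and 41.5 CPM in recovery and 0.572, 1.04 and 3.49 CPM in WT, apart but with an adjusted p of 0.0507 (3.85 ± 1.00). The count was 0 without any 1 of the WT libraries, 1 without Recovery9, 4 without Recovery5, and 6 without Recovery4 or Recovery8. Without Control1, Control2 and Control3, 15, 16 and 14 of the 25 had an unadjusted p under 0.05.

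Neutrophil gene levels were set beside 8 other genes across the 7 recovery mice. On a log2(CPM + 1) scale, Lyz2 rose with the summed granule genes, with Pearson's r = 0.928 (exact permutation p = 0.00278, adjusted over 8 relations 0.0222) and Spearman's rho = 0.929 (exact permutation p = 0.00675, adjusted 0.054). Without Recovery4 and Recovery8 its r was 0.959. C3 had r = 0.896 (exact permutation p = 0.0131, adjusted 0.0524) and rho = 0.857 (exact permutation p = 0.0238, adjusted 0.091), with r = 0.941 without those libraries. Axl had r = 0.804 (exact permutation p = 0.0389, adjusted 0.104) and rho = 0.821 (exact permutation p = 0.0341, adjusted 0.091), with r = 0.768 without them. Apoe had r = −0.52 (exact permutation p = 0.224, adjusted 0.372) and rho = −0.36 (exact permutation p = 0.444, adjusted 0.711), with r = −0.41 without them. For Spp1, Csf1, Cd74 and Mki67 r was −0.23, 0.277, 0.512 and 0.0988, rho was −0.07, 0.25, 0.5 and 0.0714, and the lowest exact permutation p of either kind was 0.233. The part of neutrophil RNA in the Lyz2, C3 and Axl differences was not tested beyond these relations.

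**Figure D3:**
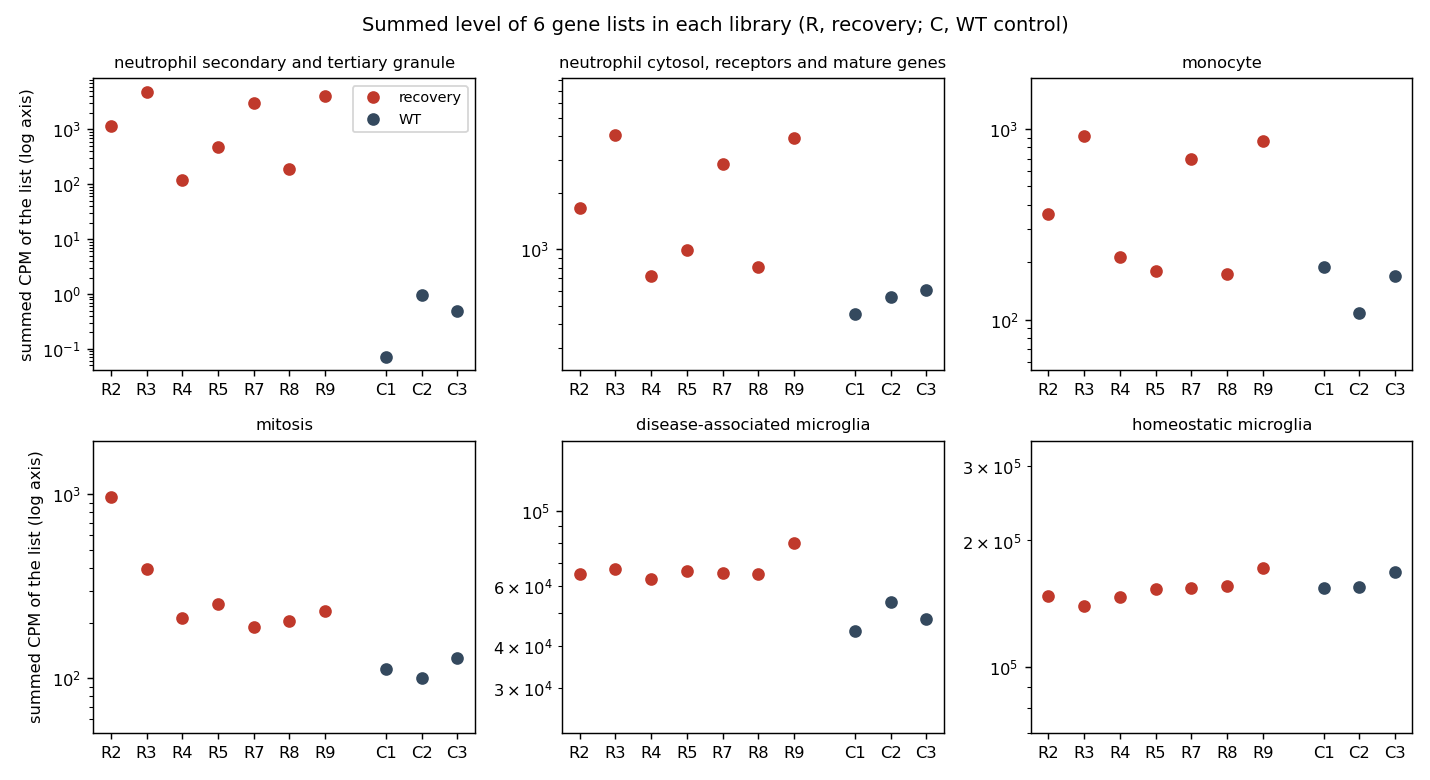
Summed CPM of 6 gene lists in each library on a log axis, with recovery libraries (R) on the left and WT libraries (C) on the right of each panel. Secondary and tertiary granule genes span 119 to 4869 CPM in recovery and stay under 1 CPM in WT, while the homeostatic list overlaps at 139811 to 172053 CPM in recovery and 153985 to 168465 CPM in WT.

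Most homeostatic microglial genes overlapped between the groups. Of 39 tested, none was called in either direction by edgeR, 9 had an unadjusted p under 0.05, and DESeq2 called 1 lower and limma none. The median log2 change was −0.14. Every recovery value was below every WT value in 6 of the 39, beside 3.07% of all genes tested. In the fit of the 10 libraries alone, 1 was called lower and 15 had an unadjusted p under 0.05. Against the 9 controls of date code 0810 (WT and rNLS8 on DOX) 2 were called lower, and against the 5 WT mice on other schedules 1. Without Recovery4, 1 was called lower. P2ry12 had 5456, 7192 and 8228 CPM in recovery and 7676, 7194 and 7942 CPM in WT (−0.15 ± 0.22, adjusted p = 0.803). Tmem119 had 6256, 6775 and 8244 CPM in recovery and 8732, 7855 and 9363 CPM in WT (−0.29 ± 0.13, adjusted p = 0.269). Cx3cr1, the fractalkine receptor gene, had 5670, 6053 and 7527 CPM in recovery and 7045, 6576 and 6525 CPM in WT (−0.08 ± 0.23, adjusted p = 0.914). All 3 overlapped.

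Csf1r, the receptor gene named with its ligand Csf1, had 14777, 15168 and 16488 CPM in recovery and 17312, 15671 and 18478 CPM in WT (−0.16 ± 0.12, adjusted p = 0.527). It overlapped as well. Vsir, an inhibitory checkpoint ligand, had 2682, 2915 and 3222 CPM in recovery and 3707, 3460 and 3670 CPM in WT (−0.29 ± 0.08, adjusted p = 0.0709). Mef2c, a transcription factor that restrains microglial activation, had 444, 491 and 551 CPM in recovery and 587, 704 and 680 CPM in WT (−0.41 ± 0.15, adjusted p = 0.182). Slco2b1, an organic anion transporter used as a microglial marker, had 2555, 2885 and 2891 CPM in recovery and 3409, 3134 and 3503 CPM in WT (−0.27 ± 0.10, adjusted p = 0.196). Tgfbr1, a receptor for the TGF-beta that maintains the homeostatic programme, had 1924, 2388 and 2956 CPM in recovery and 3152, 3279 and 3305 CPM in WT (−0.38 ± 0.15, adjusted p = 0.222). In these 4 genes every recovery mouse was below every WT mouse, by less than 2-fold, with no adjusted p under 0.05. Among the 26 TGF-beta pathway genes edgeR called none, 3 had an unadjusted p under 0.05, DESeq2 called 1 lower and limma none. The median was −0.06. Of all genes tested, 15.4% had an unadjusted p under 0.05 and edgeR called 1.05%. With the TPM share as a covariate, 9 of the TGF-beta pathway genes had an unadjusted p under 0.05 and the median was −0.18. In the fit of the 10 libraries alone and in that without Recovery4, 1 was called lower. Their summed level was 5736, 6170 and 7089 CPM in recovery and 7372, 7388 and 7771 CPM in WT, so that each recovery mouse was below each WT mouse.

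The 54 genes called lower formed no listed programme beyond single members. Of the 53 with an annotated biotype, 14 (26.4%) were not protein coding, against 3 of 115 (2.61%) among the higher genes and 18.4% of all genes tested. Their genomic span had a median of 41.5 kb, against 13.04 kb for the higher genes and 18.1 kb for all tested. Disc1, a scaffold protein linked to psychiatric disease, had 5.98, 7.47 and 9.28 CPM in recovery and 23.5, 16.3 and 10.6 CPM in WT (−1.21 ± 0.25, adjusted p = 0.0156). Hmbox1, a homeobox protein that binds telomeres, had 9.95, 11.9 and 15.4 CPM in recovery and 37.7, 27.3 and 20.1 CPM in WT (−1.15 ± 0.22, adjusted p = 0.00567). Pard3b, a polarity protein, had 4.64, 11.8 and 12.3 CPM in recovery and 37.5, 31.2 and 14.7 CPM in WT (−1.46 ± 0.34, adjusted p = 0.0298). None of the 3 overlapped, and Control3 was the WT library nearest to recovery in each. Genes taken for naming by the size of a called change had to have ranges apart, so their separation is no further result.

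Nos1ap, an adaptor of nitric oxide synthase, had 11.8, 15.2 and 21.1 CPM in recovery and 36.3, 30.3 and 35.05 CPM in WT (−1.10 ± 0.26, adjusted p = 0.0302). Snx29, a sorting nexin, had 42.4, 72.7 and 81.5 CPM in recovery and 142, 197 and 110 CPM in WT (−1.11 ± 0.24, adjusted p = 0.0215). Ggps1, which makes the geranylgeranyl donor for protein prenylation, had 21.1, 29.4 and 31.9 CPM in recovery and 42.9, 47.8 and 55.3 CPM in WT (−0.83 ± 0.15, adjusted p = 0.00447). These genes also lay apart, and the same limit holds for any chosen by size. Hivep3, a zinc finger protein that binds kappa B sites, had 56.4, 60.8 and 74.4 CPM in recovery and 98.7, 104 and 88.2 CPM in WT (−0.60 ± 0.12, adjusted p = 0.0137). Tmcc3, a protein of the endoplasmic reticulum, had 137, 157 and 191 CPM in recovery and 258, 257 and 307 CPM in WT (−0.76 ± 0.18, adjusted p = 0.0302). Dnajb1, a heat shock co-chaperone and the only called member of 25 heat shock and cold response genes, had 72.9, 77.3 and 101 CPM in recovery and 144, 107 and 126 CPM in WT (−0.63 ± 0.15, adjusted p = 0.0302). Its edgeR adjusted p was 0.235 with the TPM share as a covariate. With that covariate, 15 of the 54 lower genes and 47 of the 116 higher genes were called, with medians of −0.97 and 2.53. Genes called lower numbered 6, 8 and 35 without Control1, Control2 and Control3, 24, 22 and 25 without Recovery2, Recovery7 and Recovery9, and 87 without Recovery4.

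Markers of other cells were also examined. No gene was called by edgeR among 21 border macrophage, 13 dendritic cell, 10 oligodendrocyte, 13 astrocyte, 10 endothelial or 7 erythroid markers, with 5, 4, 4, 0, 3 and 0 of them at an unadjusted p under 0.05. DESeq2 called 0, 3, 0, 0, 2 and 0 of them. Among all genes tested, 15.4% had an unadjusted p under 0.05, edgeR called 1.05% and DESeq2 called 627 of 16151. The median log2 change of the border macrophage genes was 1.56, or 3.30 against the 5 WT mice on other schedules and 0.51 with the TPM share as a covariate. Border macrophage genes summed to 408, 524 and 716 CPM in recovery and 525.7, 533 and 585 CPM in WT, and astrocyte genes to 1035, 1576 and 2741 CPM in recovery and 1369, 1600 and 1665 CPM in WT. These ranges overlapped. Oligodendrocyte genes summed to 2078, 2298 and 2897 CPM in recovery and 1469, 1559 and 2043 CPM in WT, so that each recovery mouse was above each WT mouse. Dendritic cell genes summed to 209 to 320 CPM in 6 of the recovery mice and 385 CPM in Recovery3, against 375 to 414 CPM in WT. Endothelial genes summed to 646 to 811 CPM in 6 of the recovery mice and 569 CPM in Recovery4, against 575 to 606 CPM in WT. Their parts in the results were not tested. Erythroid genes summed to 6.89, 9.49 and 106 CPM in recovery and 3.43, 9.84 and 10.5 CPM in WT, and the highest value was that of Recovery3. The T cell genes Cd3e, Cd3g, Cd8a and Trac and the endothelial genes Cldn5 and Tek were at 0 in all 10 libraries. Of 7 tested T and NK cell genes edgeR called none, and 3 had an unadjusted p under 0.05. Their median was 2.42, or 1.83 with the 2 genes at 0 in WT set to their bound. The whole T and NK list summed to 37.2, 94.0 and 127 CPM in recovery and 64.9, 102 and 126 CPM in WT. Over rNLS8 mice on DOX, 2 of the 7 were called higher. Of 8 neuronal genes, Nefh was called lower, but it was at 0 in all recovery libraries and at 0, 1.78 and 0 CPM in WT, so that the call rested on Control2, and without it the log2 change was 0.31.

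Among 82 ribosomal protein genes 1 was called, Rpl41, with 122, 132 and 169 CPM in recovery and 71.5, 84.95 and 67.5 CPM in WT (0.88 ± 0.21, adjusted p = 0.0342), while 42 of the 82 had all recovery values above all WT values. Their sum was 6173, 7039 and 8105 CPM in recovery and 5227, 5479 and 5492 CPM in WT. These genes have many near-identical copies, which makes each single value uncertain. Among 88 respiratory chain genes and 13 mitochondrially encoded genes edgeR called none, with 20 and 0 at an unadjusted p under 0.05. DESeq2 called 2 and 0. Of all genes tested, 15.4% had an unadjusted p under 0.05 and edgeR called 1.05%.

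**Figure D4:**
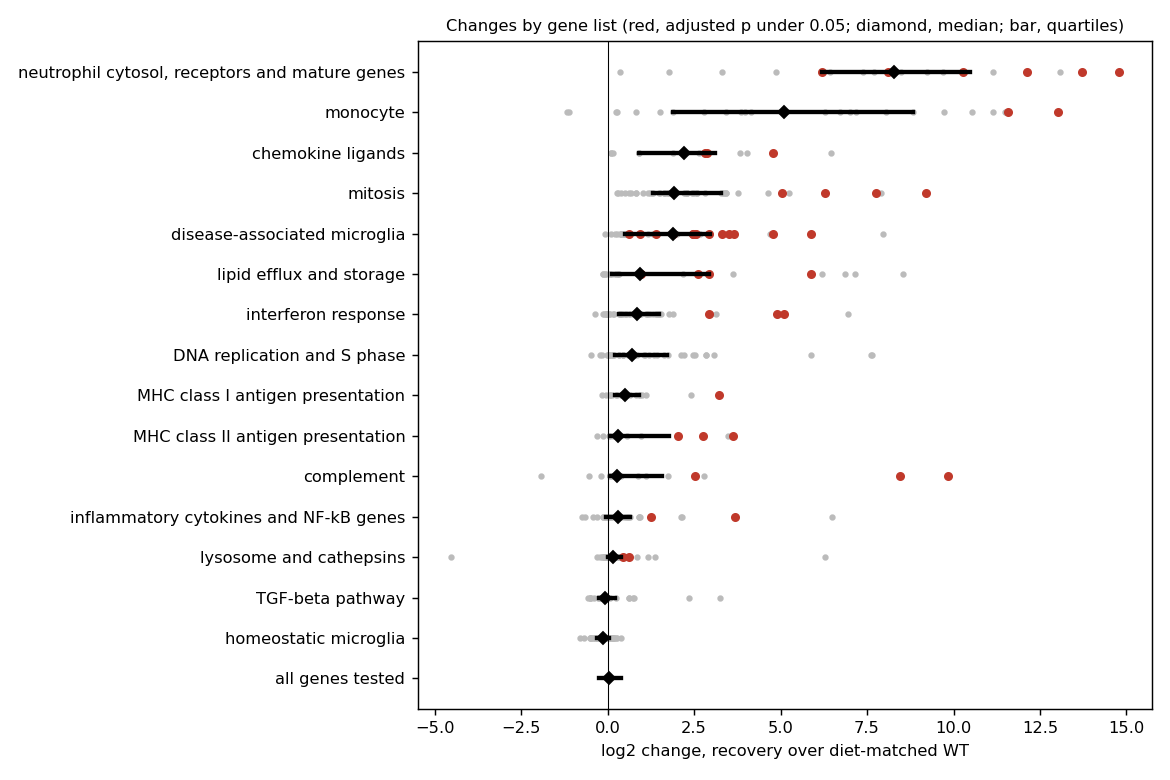
Log2 change of recovery over WT for each tested gene of the lists, 1 row per list; red points passed an adjusted p of 0.05, diamonds are medians and bars the quartiles. Disease-associated genes centre on 1.89 and homeostatic genes on −0.14.

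The WT mice could also be set against rNLS8 mice kept on DOX, which had the same date code and a transgene kept off by the diet. WT over rNLS8 on DOX gave 2 called genes among 16151 (0.0124%), 1 higher and 1 lower (0.00619% each), with 1372 at an unadjusted p under 0.05. Amotl2, an angiomotin relative, was at 2.29, 4.26 and 0 CPM in WT and at 0 in all 6 rNLS8 libraries. Clec1a, a C-type lectin receptor, had no count in the WT libraries, against 0.452, 3.14 and 4.09 CPM (lowest, median, highest) in the rNLS8 libraries on DOX. Both had an adjusted p of 0.00304. Without Control6 the count was 9, and without Control1, Control2 or Control3 it was 4, 8 or 6.

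Clec1a was also called in recovery over WT, where it had 1.46, 2.59 and 4.09 CPM in recovery and no count in WT, at least 44.6-fold higher (adjusted p = 0.000686). Against rNLS8 mice on DOX its log2 change in recovery was −0.03, and it averaged 1.81 ± 1.45 CPM in the 5 WT mice on other schedules (SD, n = 5). The 3 diet-matched WT mice were the low group for this gene. The same held for Rsad2, which averaged 4.28 ± 2.79 CPM in rNLS8 mice on DOX (n = 6) and 4.01 ± 2.21 CPM in the other WT mice, with log2 changes in recovery of 0.07 (adjusted p = 0.972) and 0.21 (adjusted p = 0.952) over those groups. The log2 change of Tnf over the same groups was 0.84 (adjusted p = 0.419) and 1.35 (adjusted p = 0.405). That of Ccl2 was 1.17 (adjusted p = 0.146) and 0.92 (adjusted p = 0.529).

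For the 116 higher genes, the median log2 change of recovery was 2.47 over diet-matched WT, 1.46 over rNLS8 mice on DOX and 1.13 over the other WT mice, and 87 and 30 of them were called higher over those further groups, where the share of all genes called higher was 3.28% and 0.475%. These comparisons share the 7 recovery libraries and are given side by side for that reason. For the 54 lower genes the medians were −0.83, −0.61 and −0.33, with 31 called over rNLS8 mice on DOX and none over the other WT mice. Of all genes tested, 4.9% were called over rNLS8 mice on DOX and 1.62% were lower, and over the other WT mice edgeR called 0.482%, with 1 of 14514 lower (0.00689%).

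Apoe depended on the reference in size but not in call. It averaged 53.5 ± 16.9 CPM in rNLS8 mice on DOX and 458 ± 376 CPM in the other WT mice, giving log2 changes of 5.45 and 2.39 (adjusted p = 9.14e-07 and 0.0384). Spp1 averaged 38.6 ± 33.0 CPM and 88.7 ± 21.0 CPM in those groups, with log2 changes of 4.27 and 3.08 (adjusted p = 3.67e-05 and 0.0094). Cd74 averaged 59.5 ± 23.2 CPM and 81.2 ± 15.5 CPM, with log2 changes of 2.67 and 2.23 (adjusted p = 8.52e-06 and 0.00203). Csf1 averaged 14.02 ± 5.22 CPM and 24.7 ± 8.18 CPM, with log2 changes of 2.66 and 1.88 (adjusted p = 9.14e-07 and 0.00209). These genes were called in recovery whichever reference was taken, with the change smallest over the other WT mice. In the list of disease-associated genes, 26 and 11 of 39 were called higher over these references, with medians of 1.47 and 1.31. Secondary and tertiary granule genes summed to 0.0576 to 219 CPM across rNLS8 mice on DOX and to 0.18 to 134 CPM across the other WT mice, so that the near absence of these genes in the diet-matched WT mice was not shared by all controls.

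**Figure D5:**
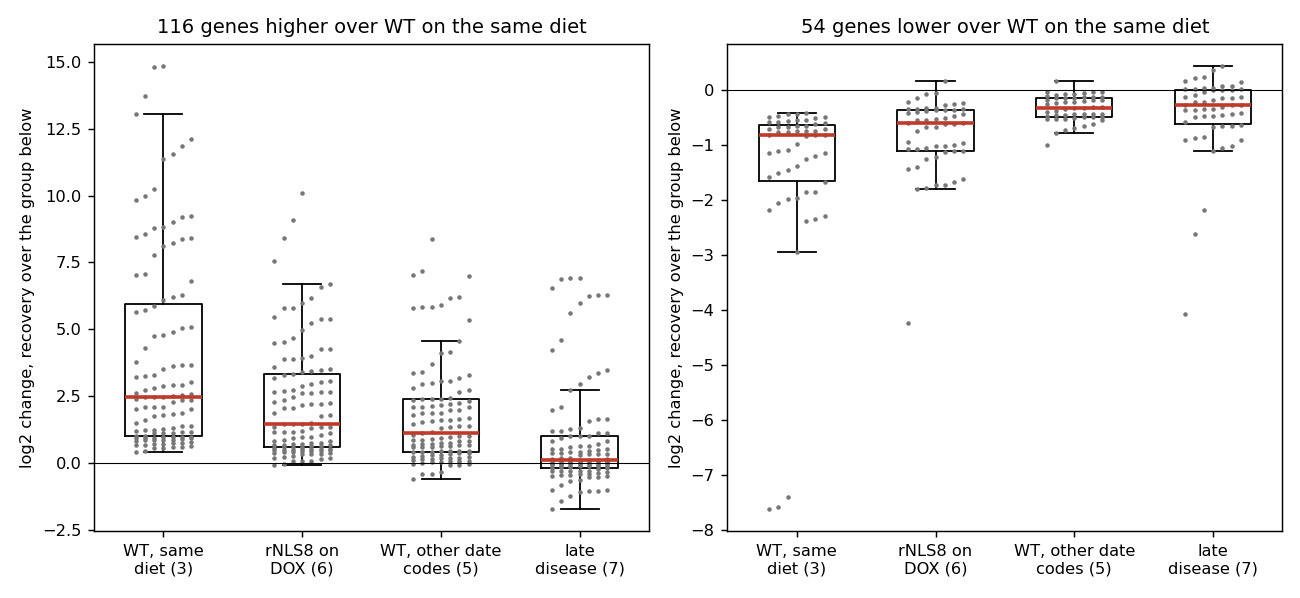
Log2 change of recovery over 4 groups for the 116 genes called higher and the 54 called lower over diet-matched WT; each box spans the quartiles over genes with the median as a line, and dots are genes. The medians for the higher genes are 2.47, 1.46, 1.13 and 0.12 over diet-matched WT, rNLS8 mice on DOX, other WT mice and late disease.

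Recovery was last compared with late disease, in which DOX had not been returned. Of 16151 genes, 107 were called (0.662%), 65 higher (0.402%) and 42 lower (0.26%) in recovery. These groups shared no date code, and the recovery mice had 1 more week on the schedule. Return of DOX, date code and time cannot be told apart in this comparison. Among disease-associated genes none of 39 was called by edgeR, with a median of 0.27, 5 at an unadjusted p under 0.05 and 3 called by DESeq2. Apoe had 1037, 2391 and 3245 CPM in recovery and 684, 2473 and 11094 CPM in late disease (−0.46 ± 0.46, adjusted p = 0.676). The late values enclosed those of recovery. The 116 genes higher over WT had a median of 0.12 over late disease, with 12 called higher and 1 lower.

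Of the homeostatic genes 2 of 39 were called higher in recovery than in late disease, Tmem119 and Selplg, and the list's median was 0.22. Tmem119 had 6256, 6775 and 8244 CPM in recovery and 3014, 5146 and 5889 CPM in late disease, without overlap (0.50 ± 0.10, adjusted p = 0.0217). Neutrophil and monocyte genes were also higher in recovery, with 7 of 14 secondary and tertiary granule genes, 8 of 20 cytosol and receptor genes and 7 of 25 monocyte genes called higher in recovery. Cxcr2 had 1.49, 6.20 and 22.7 CPM in recovery and 0.0562, 0.479 and 1.26 CPM in late disease (4.23 ± 0.72, adjusted p = 0.00617). S100a8 had a log2 change of 6.92 ± 1.63 (adjusted p = 0.0402), and Chil1, a chitinase-like protein, of 3.22 ± 0.54 (adjusted p = 0.00556). Hivep3 was lower in recovery than in late disease as well, by −0.66 ± 0.10 (adjusted p = 0.001).

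This count moved with many libraries. It was 8 without LateDisease1, 8 without LateDisease3, 49 without LateDisease6, 169 without LateDisease4 and 235 without LateDisease5. It was 55 without Recovery2, 18 without Recovery3, 16 without Recovery7, 15 without Recovery9 and 198 without Recovery4.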

How the data were processed

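Sorted spinal cord microglia were profiled by SMART-Seq and NexteraXT libraries, a kit pair that does not mark strand. The deposited gene table holds expected counts, and a matching deposited table holds TPM; RSEM, DESeq2 and the build mm10 are named in the submitters' processing notes, and no source used here gives the aligner or annotation. The authors also deposited a count of effective alignments and the sex of each mouse. RSEM shares out reads between near-identical genes by estimate.

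The expected counts, 84.67% of them whole within 1e-06, were rounded. The table has 45706 genes, of which 45143 have a symbol; the others held at most 0.146% of counts. All 35 libraries in 7 groups were fitted together with group and sex terms (edgeR 4.0.16 in R 4.3.3, TMM scaling, filterByExpr, quasi-likelihood F test), leaving 27 residual degrees of freedom and 16151 genes, with p-values adjusted over all of them and calls made under 0.05. Each SE of a log2 change is its absolute value divided by the square root of F, not a direct standard error of the fitted coefficient. Levels are CPM of the rounded counts. Alternatives used limma 3.58.1 on TPM, DESeq2 1.42.0, other scalings, filters, references and covariates, and left out each library in turn. No pair of libraries within recovery or within WT (24 pairs) was alike within sampling noise (lowest chi-square per degree of freedom 29.92). The statistics were tested on simulated data.

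The members, the 47 gene lists and the tests were chosen with earlier results of these data known. Named genes were the 10 largest called changes in each direction with ranges apart and a mean of at least 5 CPM, up to 4 members per list by p, a set of standard markers, and up to 5 genes per direction of the other comparisons; 214 genes met this rule, and the text describes those that the results turn on. Selplg, Cst7, Cd52, Lgals3, Vim and Anxa5 are named only as members of short counts. Counting intervals (95%, exact) and the floor of 3 counts cover counting error only. Promoters are from RefSeq (GRCm38.p6) by symbol; none is shown for H2-Ab1, Ccl2, Ccl5 and Lpl.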

Additional observations from a re-analysis of the deposited data

Results flagged for a closer look

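Among 110 genes and list sums examined in the 7 recovery libraries, 12 had 1 library far from the others. Its gap to the nearest neighbour was over 0.568 of the range, both taken on a log2(CPM + 1) scale. Chance flags about 1 in 20 such groups. The levels below are in CPM.

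Recovery9 stood above the others in the summed disease-associated genes, at 80070 CPM against 62689 to 67166 CPM, in the summed MHC class I genes, at 15710 CPM against 8220 to 10313 CPM, in Tyrobp, at 1617 CPM against 1211 to 1350 CPM, and in Cd63, at 911 CPM against 661 to 710 CPM. Recovery7 stood below the others in H2-Aa, at 8.12 CPM against 29.9 to 53.2 CPM, and in H2-Eb1, at 1.71 CPM against 11.2 to 21.2 CPM. The same mouse stood above the others in Dnajb1, at 101 CPM against 72.9 to 83.8 CPM, and in the summed oligodendrocyte genes, at 2897 CPM against 2078 to 2358 CPM. Recovery4 was low in Tnf, at 1.05 CPM against 4.46 to 7.20 CPM. Recovery8 was low in Rpa2, a replication protein, at 15.6 CPM against 19.4 to 21.7 CPM. Recovery5 was high in Csf1r, at 16488 CPM against 14777 to 15492 CPM. Recovery3 was high in the summed erythroid genes, at 106 CPM against 6.89 to 11.3 CPM, and it also had the highest summed neutrophil granule genes.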

How the results depend on the processing

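The 170 calls of recovery over WT became 295 in a fit of the 10 libraries alone, 627 with DESeq2, 509 and 515 with limma on TPM plus 1 and plus 0.1, 1106 against all 9 controls of the date code, and 70 against the 5 other WT. Scaling by size factors gave 180. Leaving out 1 library gave 31 to 254. The share of calls that were higher was 68.2%, against 55.9% with the TPM share as a covariate, 87.5% against all 8 WT, 98.6% against the 5 other WT, and 85.1% and 89.7% with limma. WT over rNLS8 on DOX gave 2 calls, against 85 with DESeq2, 4 with no filter on low counts and 2 to 9 with 1 library left out. Recovery over late disease gave 107, against 509 with DESeq2 and 8 to 235 with 1 library left out. Of the genes named with values in the text and called in recovery over WT, 3 changed sign in an alternative. Nbea was at 0.15 and Relb at −0.052 against the 5 other WT, and the cause was not tested. Nefh was at 0.31 without Control2 (−8.40 to 0.31 with 1 library left out). In that fit Nefh had no count in either group, so its value comes from the fit alone. Some genes that were not called also changed sign, such as Amotl2 (−2.90 to 1.19) and Tardbp (−0.16 to 0.67).

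The replicate block gave 85 calls for recovery over WT, 2 for WT over rNLS8 on DOX and 2 for recovery over late disease, over 30 libraries, since the 5 other WT share no number with another group. Numbers are shared by Recovery2 and Control2 (r = −0.11 of their deviations) and Recovery3 and Control3 (r = 0.04), and do not pair the samples. Genes with a few counts in WT are limited by depth.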

Other observations

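Stress and metabolic programmes were also examined. Of 30 genes of the unfolded protein and integrated stress response, 21 glucocorticoid targets, 24 genes of glycolysis and hypoxia, 30 immediate early genes and 24 p53 targets and BCL2 family genes, edgeR called none in recovery over WT. Of these, 4, 3, 7, 9 and 1 had an unadjusted p under 0.05, and DESeq2 called 1, 2, 3, 2 and 1. Their median log2 changes were 0.05, −0.12, 0.28, 0.38 and 0.24, beside 0.04 over all genes tested. Among all genes tested, 15.4% had an unadjusted p under 0.05, edgeR called 1.05% and DESeq2 called 627 of 16151. In the list of glycolysis and hypoxia, limma called 6 of 24 higher. The glucocorticoid targets summed to 1692 to 2291 CPM in 6 recovery mice and 4597 CPM in Recovery4, against 3021 to 3443 CPM in WT. Without Recovery4, 1 of the glucocorticoid targets was called lower, 5 had an unadjusted p under 0.05, and the median was −0.36.

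Single members of other lists were called. Bhlhe40, a transcription factor of the clock list that also shapes macrophage activation, had 5.05, 11.5 and 28.7 CPM in recovery and 3.50, 1.44 and 2.68 CPM in WT (log2 change 2.49 ± 0.63, adjusted p = 0.0432). It was the only called gene of 20 clock genes, and its ranges lay apart. The call held in 14 of 24 alternatives, and was lost with the TPM share as a covariate and without any 1 of Recovery2, Recovery3, Recovery5, Recovery7, Recovery9 and the 3 WT libraries. Gpx3, a secreted glutathione peroxidase, had 1.99, 4.49 and 6.78 CPM in recovery and no count in WT, at least 69.1-fold higher (adjusted p = 0.0486), and was the only called gene of 24 antioxidant enzymes. The call of Gpx3 held in 12 of 24 alternatives, and was lost with that covariate and without any 1 library other than Recovery4. Uxs1, which makes UDP-xylose, had 16.8, 24.5 and 27.8 CPM in recovery and 9.15, 13.2 and 11.8 CPM in WT (1.04 ± 0.17, adjusted p = 0.00161). Against rNLS8 mice on DOX, which averaged 20.6 ± 3.43 CPM (SD, n = 6), its log2 change in recovery was 0.19 (adjusted p = 0.43), so that the WT mice were again the low group.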
